A study of Mus musculus with 2 samples.

Results

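The genes of mitosis, with the transcription factor FoxM1 and many of the genes it is known to activate, were followed in the E18.5 mouse cochlea on 2 Affymetrix MOE430A arrays. The list holds 38 genes, chosen by their known roles from mitotic entry to cytokinesis. The rule read no measured value, but earlier results of these data were known when the list was made. Of these, 37 were measured by a probe set naming a single gene, among 12393 genes measured in all, and only *Ccnb1*, which encodes cyclin B1, was not. The embryos came from crosses of *Igf1* heterozygotes on the C57BL/6J background, and the comparison set the *Igf1*-/- null against the *Igf1*+/+ wild type. The null carries a targeted disruption of *Igf1* in every cell, the tissue was whole cochlea with its otic capsule and without vestibular tissue, and the labels give 8 pooled cochleae per array. The genotype behind each array is not settled, because the titles are contradicted by the other labels: the array titled -/- is described as wild type and the array titled +/+ as null. Both are therefore called by their titles alone, the -/- array and the +/+ array. Differences are given on the log2 scale as the -/- array minus the +/+ array, after subtraction of the median difference of all probe sets, 0.022.

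Cells enter mitosis when CDK1, bound to a cyclin, is freed of its inhibitory phosphates by CDC25 phosphatases. Polo and Aurora kinases then build the spindle, the spindle checkpoint holds back anaphase until every kinetochore is attached, and CDC20 with the anaphase-promoting complex ends mitosis by marking the cyclins and securin for destruction. FoxM1, a forkhead factor made in proliferating cells, drives many of these genes in late cell cycle phases together with B-Myb and the MuvB complex, while pocket proteins repress them in resting cells. In the mouse cochlea near birth the hair cells and supporting cells have left the cell cycle, whereas mesenchyme, cartilage and blood vessels of the same dissection still hold dividing cells.

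Of the mitosis genes, 36 were at a level of 5 or more on both arrays, beside 8758 of the 12393 genes measured. Most mitosis genes differed little between the arrays. Of the 37 genes, 23 were higher and 14 lower on the -/- array, while 50.5% of all genes measured were higher there. If the source names hold in place of the titles, the numbers are 14 higher and 23 lower in the null. The median difference was 0.043 over the mitosis genes and 0.0028 over all genes. No mitosis gene differed by more than 1 log2 unit in either direction, against 5.54% of all genes above 1 and 4.07% below -1. A difference above 0.25 was found for 5 mitosis genes, *Cdc25c*, *Bub1b*, *Cenpf*, *Ect2* and *Prc1*, and a difference below -0.25 for *Kif4* alone, against 20.0% and 15.8% of all genes. No array was repeated in the data used here, so none of these differences was tested.

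The spread of the differences depended on the level, and the mitosis genes were therefore set beside genes of the same level. Between levels of 7 and 9, 2 of 20 mitosis genes differed by more than 0.25 in size, against 14.7% of all genes of these levels. At 9 and above, 0 of 6 did so, against 8.16%, and between 5 and 7, 3 of 10 did so, against 43.8%. All 37 mitosis genes lay inside the central 90% of differences of the genes in their own level range, which ran from -0.28 to 0.32 between levels of 7 and 9 and from -0.52 to 0.70 between 5 and 7. The repeat readings that these arrays hold are those of several probe sets of the same gene, and their differences had a pooled SD of 0.084 at levels of 9 and above, 0.13 between 7 and 9, 0.31 between 5 and 7 and 1.18 below 5. A level on such an array depends on the oligonucleotides of its probe set, so levels are compared between the arrays and not between genes.

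**Figure D1:**
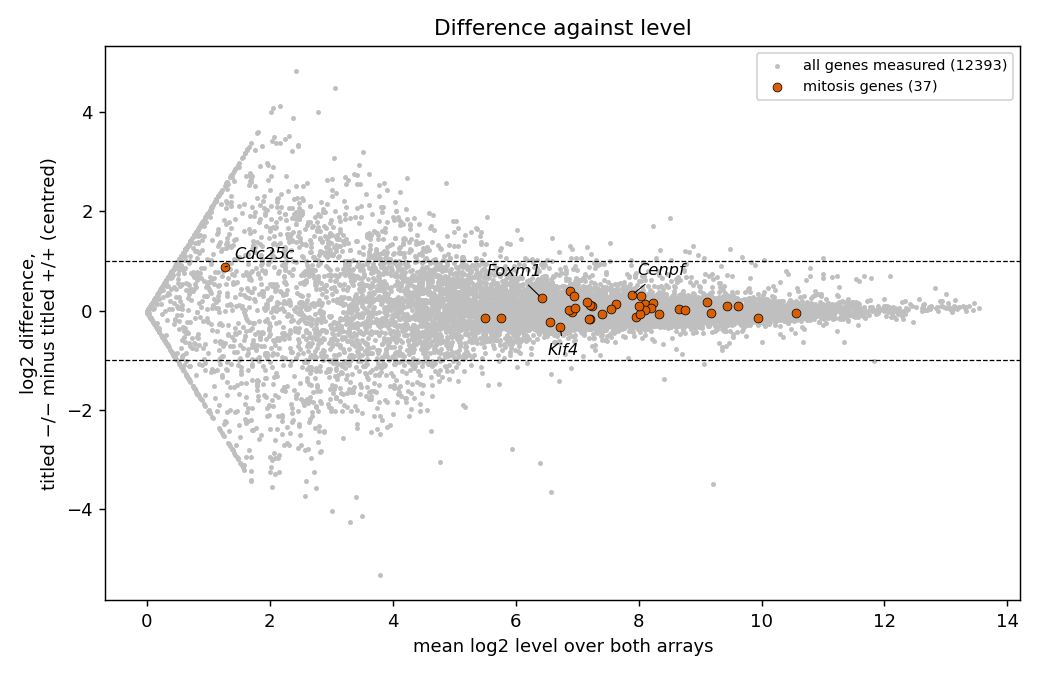
Centred log2 difference (-/- array minus +/+ array) plotted against the mean of both log2 levels, with 1 point per gene, the 37 mitosis genes in orange over all 12393 genes in grey, and dashed lines at 1 and -1. All mitosis genes lie between the dashed lines, 26 of them at a level of 7 or more, and *Cdc25c* alone lies below 5.

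The promoters of these genes share sequence elements. The rule that chose the genes read no sequence, but genes known to be driven by FoxM1 and MuvB are among those in which such elements were described, so the elements are not independent of the choice. RefSeq promoters of the GRCm38.p6 build, from 250 bases before to 50 bases after the start site, were at hand for 31 of the 38 genes and for 27025 genes in all. *Foxm1*, *Ccna2*, *Cdc25c*, *Aurkb*, *Incenp*, *Tpx2* and *Kif20a* have no entry in that table. The cell cycle genes homology region, or CHR, is the site through which MuvB complexes reach genes of late cell cycle phases in human and mouse cells, and it was searched as TTTGAA or TTCGAA on either strand. It was found in 23 of the 31 promoters (74.2%), against 21.7% of all genes with a promoter. The CCAAT box, bound by NF-Y, was found in 26 of 31 (83.9%) against 41.1%, and both elements in 22 of 31 (71.0%) against 8.61%. The forkhead core TAAACA was found in 4 of 31 (12.9%), in *Ccnb1*, *Cenpf*, *Kif2c* and *Ect2*, against 15.1% of all genes. TTCGAA reads the same on both strands, none of these motifs holds another, a gene with several promoters counts once if any of them matches, and each match is of letters only. The mitosis promoters were richer in G and C, with a median of 58.7% against 52.8%. Among the genes with a promoter between 55.2% and 64.2% G and C, both elements stood in 73.3% of 15 mitosis genes and in 6.02% of 6475 genes.

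Stretches of 6 promoters are shown because they hold the CHR and the CCAAT boxes at the start site of genes that follow each other through mitosis. Each is written 5′ to 3′ on the strand of its gene, with the CCAAT boxes in capitals (ATTGG where the box lies on the other strand) and the CHR in capitals as well. *Ccnb2* (GRCm38.p6, chr9:70421525-70421654, minus strand) encodes cyclin B2, *Cdk1* (chr10:69352883-69353012, minus strand) the kinase it activates, and *Bub1* (chr2:127831830-127831939, minus strand) a kinase of the spindle checkpoint. *Cenpf* (chr1:189688057-189688186, minus strand) encodes a protein of the outer kinetochore, *Cdc20* (chr4:118437314-118437413, minus strand) the activator of the anaphase-promoting complex, and *Prc1* (chr7:80294391-80294480, plus strand) a microtubule bundler of the central spindle.
Ccnb2: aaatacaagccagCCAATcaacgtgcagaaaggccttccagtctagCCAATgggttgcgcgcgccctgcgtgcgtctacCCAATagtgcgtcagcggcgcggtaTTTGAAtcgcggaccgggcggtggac
Cdk1: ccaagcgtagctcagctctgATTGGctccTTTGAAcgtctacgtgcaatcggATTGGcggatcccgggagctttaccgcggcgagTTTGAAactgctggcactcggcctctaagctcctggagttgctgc
Bub1: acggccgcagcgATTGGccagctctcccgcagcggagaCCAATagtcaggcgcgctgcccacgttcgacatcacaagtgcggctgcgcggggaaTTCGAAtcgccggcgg
Cenpf: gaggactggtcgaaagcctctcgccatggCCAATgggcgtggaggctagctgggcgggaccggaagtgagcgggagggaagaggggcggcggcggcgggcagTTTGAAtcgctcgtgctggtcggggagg
Cdc20: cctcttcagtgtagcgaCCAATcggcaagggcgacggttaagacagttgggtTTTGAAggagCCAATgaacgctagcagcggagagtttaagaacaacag
Prc1: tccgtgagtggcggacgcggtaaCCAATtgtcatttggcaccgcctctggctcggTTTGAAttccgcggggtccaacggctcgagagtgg

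In *Ccnb2* the CCAAT boxes of this stretch lay 33 and 33 bases apart, and the CHR began 25 bases after the start of the last box. In *Cdk1* a box began 33 bases before the CHR at the start site, in *Cdc20* 35 bases before it and in *Prc1* 32 bases before it. In *Bub1* this distance was 56 bases and in *Cenpf* 73 bases. With 1 promoter per gene, 28 CHR elements in 22 genes had a CCAAT box before them. The nearest box lay at a median of 31.5 bases from start to start, and 7 of the 28 distances lay between 30 and 35 bases. These distances were not measured in the promoters of other genes. Among the 30 genes with both a promoter and a level, the 23 with a CHR had a median difference of 0.085 between the arrays, with 16 higher on the -/- array. The 7 without a CHR had a median of -0.073, with 1 higher. Each gene was read here from its strongest probe set. Probe sets at a level of 5 or more opposed each other in *Bub1*, *Bub3*, *Cdc20*, *Cks1b*, *Kif11* and *Racgap1*, which hold a CHR, and in *Plk4*, which does not. Over all measured genes with a promoter, 51.8% of those with a CHR and 50.1% of those without were higher on the -/- array. The 3 measured genes with a forkhead core had a median of 0.30, with 2 higher, and the 27 without had a median of 0.011, with 15 higher. Over all measured genes, 51.8% with this core and 50.2% without it were higher. These values describe the genes and were not tested. Of a wider list of 91 other mitosis genes with a promoter, 51.6% held a CHR and 33.0% held both elements.

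**Figure D2:**
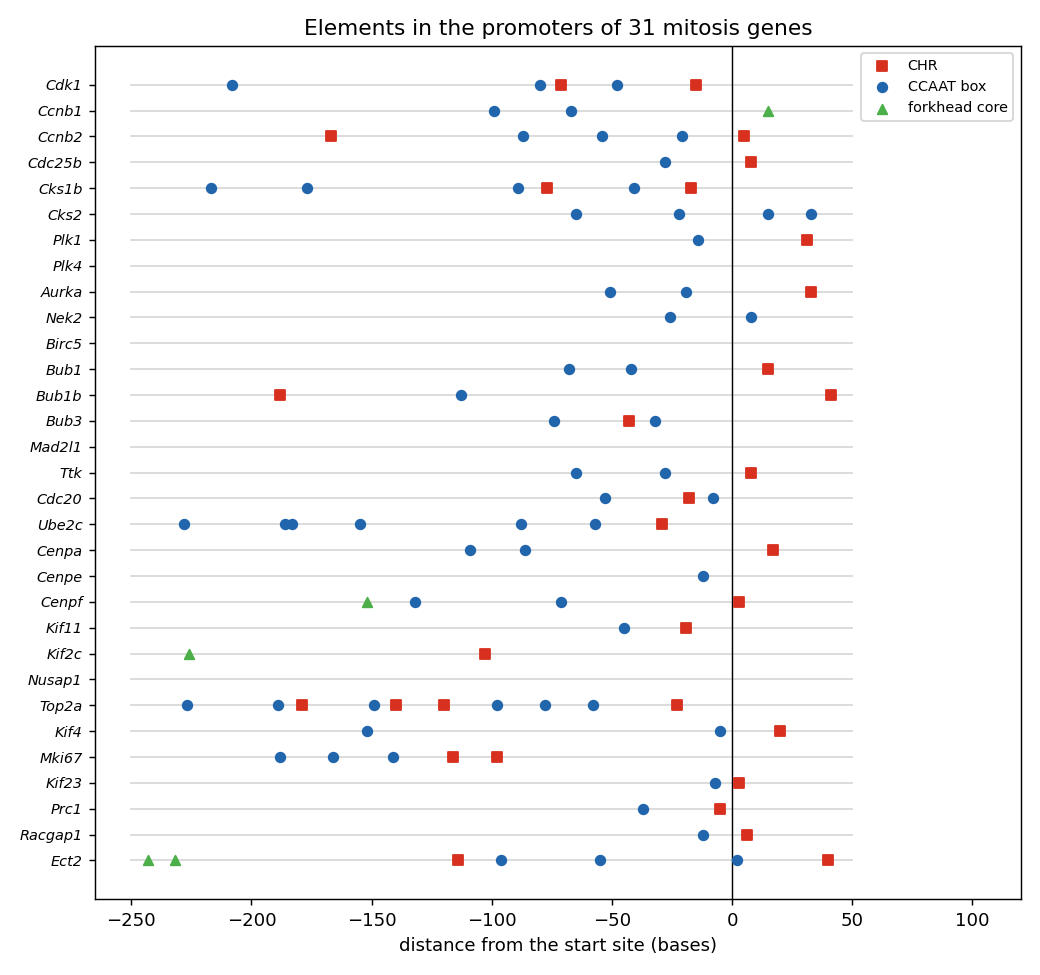
Positions of CHR elements (red squares), CCAAT boxes (blue circles) and forkhead cores (green triangles) in 1 promoter each of 31 mitosis genes, in bases from the start site, with 1 grey line per gene. In most rows a red square lies near the start site with a blue circle before it, and the lines of *Plk4*, *Birc5*, *Mad2l1* and *Nusap1* hold no element.

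*Foxm1* itself was read by 4 probe sets, and these did not give the same direction. The strongest was at 6.56 on the -/- array against 6.29 on the +/+ array, a difference of 0.25. The next was at 6.53 on the -/- array against 6.13 on the +/+ array, a difference of 0.38, but ends in _x_at, the suffix of probe sets that may bind transcripts of other genes. Both strong readings were thus higher on the -/- array by about the SD of repeat readings at their level, 0.31. The remaining probe sets were weaker and opposed each other. One was at 2.94 on the -/- array against 5.16 on the +/+ array, a difference of -2.25, and the other at 1.95 on the -/- array against 0.98 on the +/+ array, a difference of 0.95. As a mean over all 4 probe sets the difference was -0.17, so that the sign of *Foxm1* turns with the choice of probe set, and with the genotype if the source names hold.

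Among the genes of the CDK1 and cyclin switch, 5 of 7 measured genes were higher and 2 lower on the -/- array, with a median of 0.085. *Cdk1*, the kinase that starts mitosis, was at 9.21 on the -/- array against 9.02 on the +/+ array, a difference of 0.17. *Ccnb2* was at 8.18 on the -/- array against 8.03 on the +/+ array, a difference of 0.13. Cyclin A2, which acts from DNA synthesis to early mitosis, gave nearly equal readings: *Ccna2* differed by 0.043 at a level of 8.69 on the -/- array against 8.63 on the +/+ array, and its second probe set by 0.042. The phosphatase genes that activate CDK1 were unlike in how well they were read. *Cdc25b* was at 7.29 on the -/- array against 7.18 on the +/+ array, a difference of 0.085. *Cdc25c* was at 1.73 on the -/- array against 0.82 on the +/+ array, close to the floor of the arrays, and its difference of 0.88 was below the SD of repeat readings there, 1.18. The CDK-binding proteins *Cks1b* and *Cks2* were both slightly lower on the -/- array. *Cks1b*, which also serves the SCF ubiquitin ligase that destroys p27Kip1, was at 10.55 on the -/- array against 10.57 on the +/+ array, a difference of -0.044. *Cks2* was at 9.16 on the -/- array against 9.19 on the +/+ array, a difference of -0.054. Of their second probe sets, that of *Cks1b* differed by 0.036 and that of *Cks2* by -0.13.

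The mitotic kinase genes were split evenly, 2 higher and 2 lower, with a median of 0.017. *Aurka*, the Aurora kinase of the spindle poles, was at 7.25 on the -/- array against 7.06 on the +/+ array, a difference of 0.17. *Plk1*, the Polo kinase of mitotic entry, was at 7.27 on the -/- array against 7.15 on the +/+ array, a difference of 0.11. *Plk4*, which controls centriole duplication, was lower by 0.073 for its strongest probe set, at 7.38 on the -/- array against 7.43 on the +/+ array. This probe set ends in _s_at, the suffix of probe sets shared by several transcripts. The weaker probe sets of *Plk4* gave 0.29 and -1.06, so the direction of *Plk4* differs between its probe sets. *Nek2*, a kinase that separates the centrosomes, was at 5.69 on the -/- array against 5.83 on the +/+ array, a difference of -0.16. Of the chromosomal passenger complex, which corrects faulty attachments, the kinase gene *Aurkb* differed by -0.031 at a level of 6.92 on the -/- array against 6.93 on the +/+ array. This probe set ends in _x_at, and the other probe set of *Aurkb*, which ends in _s_at, differed by -0.15. *Birc5*, which encodes survivin, differed by 0.045 at a level of 8.24 on the -/- array against 8.17 on the +/+ array. *Incenp*, the scaffold of this complex, was at 8.33 on the -/- array against 8.14 on the +/+ array, a difference of 0.16, for a probe set ending in _x_at, and at 7.07 on the -/- array against 7.13 on the +/+ array, a difference of -0.077, for the next one. The weakest probe set of *Incenp*, below a level of 5, differed by -0.45. The direction of *Incenp* thus rests on a probe set that may bind other transcripts.

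Of the 5 genes of the spindle checkpoint, 4 were lower on the -/- array, which gave this group a median of -0.14, the lowest of the role groups. *Ttk*, which encodes the kinase MPS1, was at 6.46 on the -/- array against 6.67 on the +/+ array, a difference of -0.23. *Mad2l1*, which encodes the inhibitor of CDC20, was at 7.90 on the -/- array against 8.00 on the +/+ array, a difference of -0.12. *Bub1* was at 7.13 on the -/- array against 7.27 on the +/+ array, a difference of -0.16, but its weaker probe set differed by 0.17. The direction of *Bub1* thus differs between its probe sets, and so does that of *Bub3*. *Bub3*, the partner of BUB1 and BUBR1, differed by -0.14 for its strongest probe set, which ends in _s_at, the suffix of probe sets shared by several transcripts, at 9.88 on the -/- array against 9.996 on the +/+ array, and by 0.22, 0.36 and 2.12 for the others in falling order of level. The gene that went the other way, *Bub1b*, which encodes BUBR1, was at 7.08 on the -/- array against 6.67 on the +/+ array. Its difference of 0.39 was the largest among the mitosis genes of a level above 5. With its probe sets averaged per gene, the median of the group was 0.0044, so its direction is not settled.

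The genes of anaphase ubiquitination differed by small amounts. *Cdc20* was at 8.78 on the -/- array against 8.74 on the +/+ array, a difference of 0.019, for a probe set ending in _x_at. Its next probe set pointed the other way, at 8.54 on the -/- array against 8.64 on the +/+ array, a difference of -0.13, and the weakest, below a level of 5, differed by 0.62. *Ube2c*, the ubiquitin-conjugating enzyme of the anaphase-promoting complex, was at 8.32 on the -/- array against 8.36 on the +/+ array, a difference of -0.068. Of the centromere and kinetochore genes, *Cenpa*, the histone H3 variant that marks centromeres, differed by 0.0076 at a level of 8.12 on the -/- array against 8.09 on the +/+ array. *Cenpe*, the kinesin that brings chromosomes to the spindle equator, was at 5.44 on the -/- array against 5.57 on the +/+ array, a difference of -0.15. *Cenpf* was at 8.05 on the -/- array against 7.72 on the +/+ array, a difference of 0.31, while its weaker probe set was at 3.95 on the -/- array against 4.93 on the +/+ array, a difference of -1.0.

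**Figure D3:**
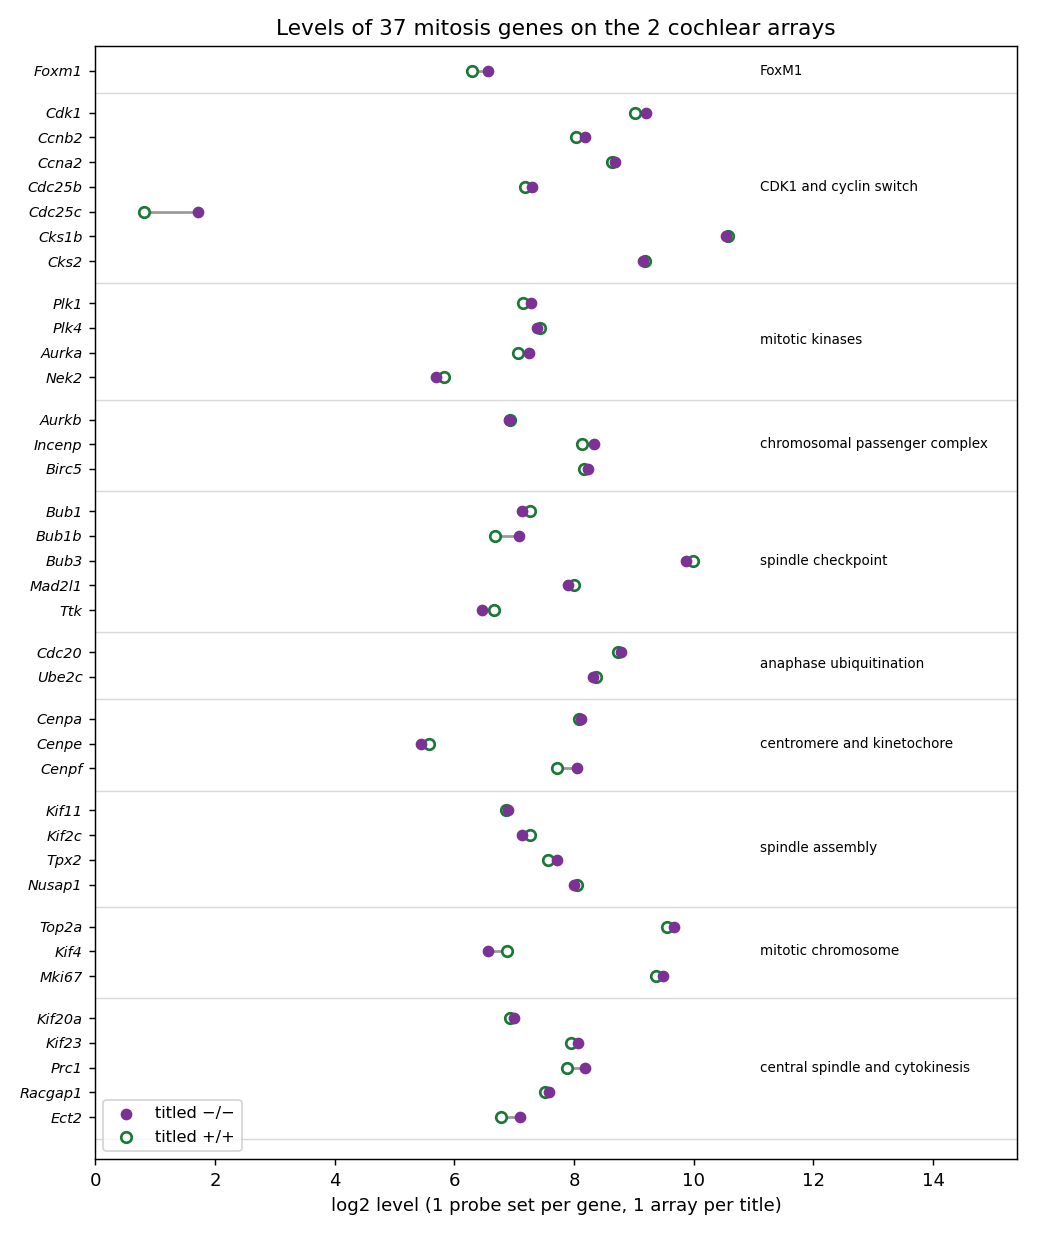
Log2 level of 37 mitosis genes on the -/- array (filled purple) and the +/+ array (open green), in groups by role, where a grey line links both values of a gene, each from its strongest probe set. Most pairs of points touch, *Cdc25c* has the longest line at 1.73 on the -/- array against 0.82 on the +/+ array, and *Bub1b*, *Kif4*, *Cenpf*, *Ect2* and *Prc1* have the next longest.

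Of the spindle assembly genes, 2 were higher and 2 lower on the -/- array. *Kif11*, the kinesin that pushes the poles apart, differed by 0.011 at a level of 6.89 on the -/- array against 6.86 on the +/+ array, and its weaker probe sets by -0.074 and 0.80. *Tpx2*, the activator of Aurora A, was at 7.71 on the -/- array against 7.56 on the +/+ array, a difference of 0.13, and its second probe set differed by 0.21. *Kif2c*, the microtubule-depolymerising kinesin MCAK, was at 7.13 on the -/- array against 7.27 on the +/+ array, a difference of -0.16. This probe set ends in _x_at, and the 4 probe sets of *Kif2c* were all lower on the -/- array. *Nusap1*, a microtubule-binding protein of the spindle, differed by -0.071 at a level of 7.99 on the -/- array against 8.04 on the +/+ array. Its weaker probe set, below a level of 5, differed by -0.84.

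The proliferation marker *Mki67* was at 9.49 on the -/- array against 9.37 on the +/+ array, a difference of 0.097. *Top2a*, the topoisomerase that untangles sister chromatids, was at 9.67 on the -/- array against 9.55 on the +/+ array, a difference of 0.10, and its second probe set was listed at 0 on both arrays. Both genes were read at levels where repeat readings had an SD of 0.084. *Kif4*, a chromosome-bound kinesin, was at 6.57 on the -/- array against 6.88 on the +/+ array, and its difference of -0.34 was the lowest of the 37 genes.

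All 5 genes of the central spindle and cytokinesis were higher on the -/- array for their strongest probe sets, with a median of 0.085, or of -0.080 over the second probe sets of those with several. *Ect2*, which activates RhoA at the cleavage furrow, was at 7.11 on the -/- array against 6.78 on the +/+ array, a difference of 0.30. *Prc1* was at 8.19 on the -/- array against 7.87 on the +/+ array, a difference of 0.29, for a probe set ending in _s_at, and its second probe set was at 7.21 on the -/- array against 7.05 on the +/+ array, a difference of 0.14. *Kif23* and *Racgap1*, which form the centralspindlin complex, were both close to equal. *Kif23* was at 8.07 on the -/- array against 7.96 on the +/+ array, a difference of 0.085. *Racgap1* was at 7.58 on the -/- array against 7.52 on the +/+ array, a difference of 0.038. *Kif20a*, a kinesin of the central spindle, differed by 0.053 at a level of 7.001 on the -/- array against 6.93 on the +/+ array. The weaker probe set of *Racgap1* differed by -0.080 and those of *Kif23* by -0.48 and 0.83.

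Several probe sets above 0 read 18 of the 37 genes, and in 11 of these they differed in opposite directions. How often the probe sets of other genes oppose each other was not counted, so these counts are not particular to mitosis genes. In 8 of these genes, probe sets at a level of 5 or more already opposed each other, and in *Cenpf*, *Foxm1* and *Kif23* the opposing probe set was below 5. The size of the differences was greater at low levels. Of the 13 probe sets of mitosis genes with a mean level below 5, 12 differed by more than 0.25 in size and 4 by more than 1. Of all genes below this level, 73.3% differed by more than 0.25 and 1100 of 3429 by more than 1. Of the 54 probe sets at 5 or more, 9 differed by more than 0.25 and none by more than 1. The shares of all genes past 0.25 were 43.8% between 5 and 7, 14.7% between 7 and 9 and 8.16% at 9 and above. In the 8 genes with several probe sets at a level of 7 or more, these probe sets differed from each other by at most 0.36, but in 5 genes they fell on either side of 0. Differences of this size between the arrays are thus of the order of the differences between probe sets of the same gene.

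**Figure D4:**
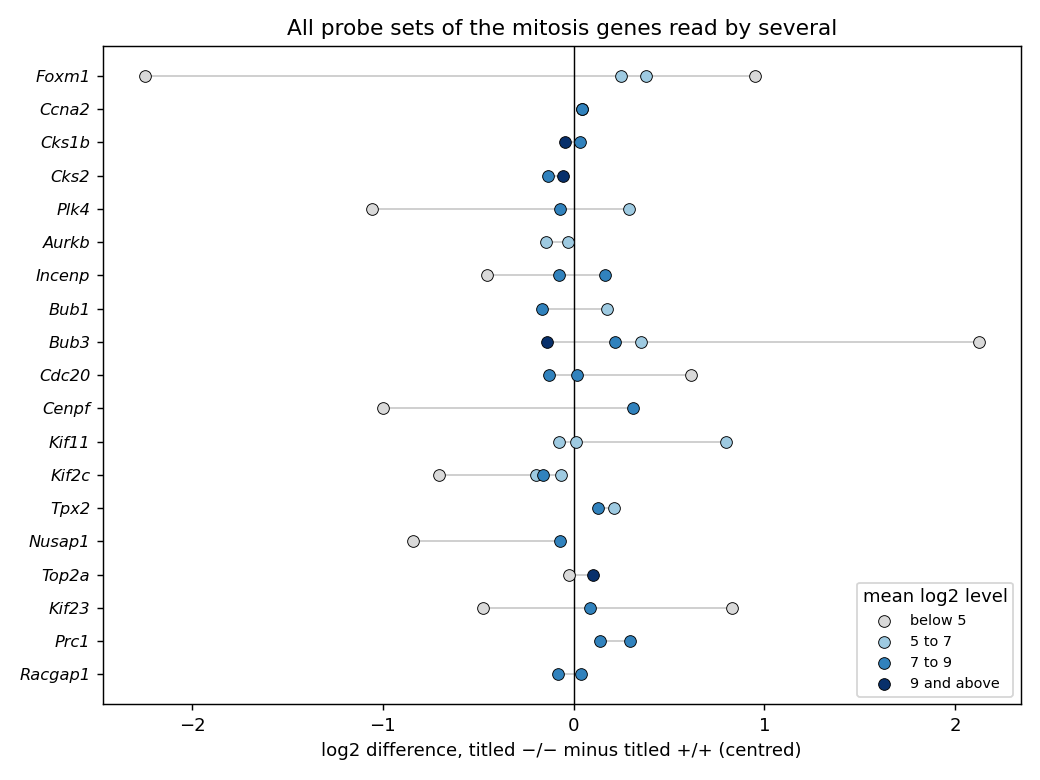
Log2 difference (-/- array minus +/+ array, centred) of every probe set of the 19 mitosis genes read by several, with 1 point per probe set and darker blue for a higher mean level. Dark points cluster near 0, and the points farthest from 0, those of *Foxm1* at -2.25 and *Bub3* at 2.12, are pale, with a mean level below 5.

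Other genes of mitosis also showed mostly small differences. Over 5 further lists joined, 78 genes were measured, of which 49 were higher and 29 lower on the -/- array, with a median of 0.070. Above 0.25 were 12 of the 78 and below -0.25 were 4, against 20.0% and 15.8% of all genes. None passed 1 log2 unit, against 5.54% of all genes above 1 and 4.07% below -1. The 78 differences ran from -0.81 to 0.94. Named here are the 4 genes of the highest level in each list, and at high levels the spread was smaller. Other kinetochore genes had the highest median, 0.13, with 16 of 23 higher. *Zwint*, a binding partner of the outer kinetochore, was at 9.38 on the -/- array against 9.16 on the +/+ array, a difference of 0.20. *Zw10*, *Cenpt* and *Spc25* differed by 0.20, 0.13 and 0.10. Condensin and cohesin genes had a median of 0.052 and none differed by more than 0.25 in size. *Stag2*, *Rad21* and *Smc1a* of cohesin differed by -0.10, -0.068 and -0.13, and *Pttg1*, which encodes securin, by -0.037. Other spindle proteins had a median of 0.080, with *Numa1* at 0.11, *Kif2a* at 0.069, *Kif22* at -0.034 and *Kpna2*, an importin that holds spindle factors, at -0.20. Genes of the anaphase-promoting complex and of proteins that work with it had a median of -0.0091, with 6 of 13 higher. Among the higher ones were *Anapc5* at 0.12, *Anapc13* at 0.17 and *Ube2s* at 0.17, while *Cdc16* was at -0.074. The other regulators of entry and exit had a median of -0.0065 over 10 genes, with *Arpp19* at -0.12, *Ensa* at 0.058, *Pbk* at 0.029 and *Cdc25a* at -0.15.

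The complexes that switch mitosis genes on and off showed small differences, with a median of -0.059, or of 0.15 when second probe sets were read. Of their 10 genes, 8 were lower on the -/- array, while 50.5% of all genes were higher there. *Rbbp4*, the histone-binding subunit of MuvB, was at 11.27 on the -/- array against 11.28 on the +/+ array, a difference of -0.031. *Tfdp1*, the partner of E2F factors, *E2f5* and the pocket protein gene *Rbl2* differed by -0.086, -0.085 and -0.060. The CDK inhibitors had a median of -0.11 over 7 genes, 2 of them below a level of 5, and of 0.0031 over the 5 at a level of 7 or more, so their direction is not settled. *Cdkn1b*, which encodes p27Kip1, was at 8.37 on the -/- array against 8.46 on the +/+ array, a difference of -0.11. *Cdkn1c*, which encodes p57, differed by -0.13 at a level of 12.11 on the -/- array against 12.21 on the +/+ array, *Cdkn1a* by 0.31 at 8.99 on the -/- array against 8.66 on the +/+ array and *Cdkn2d* by 0.0031 at 8.72 on the -/- array against 8.70 on the +/+ array. Among genes of DNA replication, 11 of 17 were lower and 6 higher on the -/- array, beside 50.5% of all genes higher. Their median was -0.035, or 0.059 when second probe sets were read, so their direction is not settled. *Pcna*, the sliding clamp, differed by -0.0098, the helicase genes *Mcm7* and *Mcm6* by -0.079 and -0.11 and the reductase gene *Rrm2* by 0.079.

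**Figure D5:**
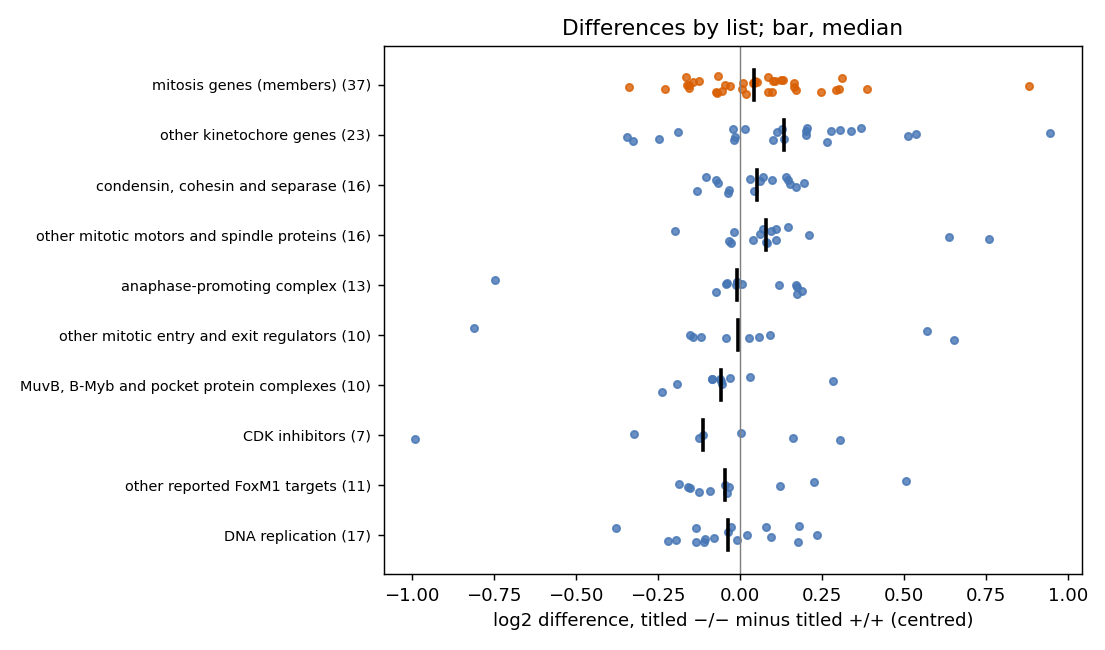
Log2 difference (-/- array minus +/+ array, centred) of the 37 mitosis genes (orange) and of the genes of 9 related lists (blue), with 1 point per gene, a black bar at the median and the number of measured genes in brackets. The medians lie between -0.11 for CDK inhibitors and 0.13 for other kinetochore genes.

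Markers of muscle and lung differed between the arrays by larger amounts than the mitosis genes. *Igf1*, the disrupted gene, was present on both, at 11.03 on the -/- array against 11.42 on the +/+ array for its strongest probe set. Its 3 probe sets were all lower on the -/- array, with differences of -0.42, -0.75 and -0.58, which is the direction of the titles, but none was near 0 on either array. Of 15 markers of cochlear epithelium, 13 were at 5 or more on both arrays, beside 8758 of all 12393 genes. On the -/- array 12 of the 15 were lower and 3 higher, from -0.80 to 0.14 with a median of -0.21. Below -0.25 were 5 of them, against 15.8% of all genes. The hair cell factor *Pou4f3* was at 4.97 on the -/- array against 5.03 on the +/+ array, a difference of -0.083. Skeletal muscle genes were higher on the -/- array in 14 of 14 cases, with a median of 0.83 and levels from 7.20 to 13.06 there and from 6.52 to 12.58 on the +/+ array. All 9 measured genes of lung epithelium were lower, with a median of -3.49 and levels from 1.15 to 7.47 on the -/- array and from 2.85 to 10.94 on the +/+ array. Genes of erythroid precursors, which divide in the embryo, went both ways, 3 higher and 5 lower on the -/- array, from -2.53 to 1.79 with a median of -0.72. Of these 8 genes, 2 were at 5 or more on both arrays, *Alas2* of heme synthesis at -0.44 and the membrane skeleton gene *Ank1* at 0.86, and *Epb42* was listed at 0 on the +/+ array. Chondrocyte genes, at levels of 8.56 or more on the -/- array and 7.75 or more on the +/+ array, had a median of 0.012. Endothelial genes had a median of 0.18, macrophage genes -0.054, osteoblast genes -0.079, Schwann cell genes -0.22, neuronal genes 0.32 and genes of hindbrain and central glia 0.30. The part of these tissues in the mitosis readings was not tested. In whole tissue, a difference in the number of dividing cells and a difference in RNA per dividing cell cannot be told apart.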

How the data were processed

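Cochlear RNA of E18.5 embryos was hybridised as biotin-labelled cRNA, and 1 array per title was analysed. The methods of the study describe several independent RNA pools per genotype. How the 8 cochleae per array of the labels relate to these pools is not stated. Per probe set the authors deposited 1 value per array, a log2 level between 0 and 13.67. The methods describe MAS5.0 and RMA as a first pass and take expression levels from multi-mgMOS in PUMA. That the deposited table holds the multi-mgMOS levels, and how arrays were scaled, is not stated in the sources used. Base 2 was read from the values, which pass 11.09, the natural log of the largest 16-bit intensity, and stay under its log2, 16.

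Of 22690 probe sets, 64 controls were left out and 20380 of the rest name 1 gene in the platform annotation, 20351 of them matched to RefSeq. A gene with several probe sets was read from the one strongest on average, and the median difference was subtracted. No test was made for want of replicates, and having only 1 array per title limits the precision. All 38 listed genes are named. Of each other pathway list the 4 genes of the highest level are named, and *Igf1*, *Pou4f3*, *Epb42*, *Alas2*, *Ank1* and *Mmp9* besides, chosen after their values were seen. The marker lists are otherwise summarised. The members, lists and promoter motifs were chosen with earlier results of these data known. Alternatives were no centring, quantile normalization, loess (span 0.3), a floor at the 25th percentile, only levels of 7 or more, the mean over probe sets, leaving out probe sets ending in _x_at or _s_at, and, added after the data were seen, the second probe set by level. The steps were tested on simulated arrays. Python 3.11.15 with numpy 2.4.6, pandas 2.3.3, statsmodels 0.14.6 and matplotlib 3.10.9 was used.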

Additional observations from a re-analysis of the deposited data

How the results depend on the processing

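The median difference of the mitosis genes stayed between 0.021 and 0.064 under the other alternatives run and was -0.071 for the second probe sets of 18 genes, a choice added after the data were seen. There, 8 genes were higher, 10 lower and 1, *Cenpf*, past 1 log2 unit. Restricted to levels of 7 or more, 17 genes were higher, 9 lower and 2 past 0.25, since only 26 genes are left. The *Foxm1* difference was between 0.21 and 0.27 under the other scalings, 0.38 for its second probe set and -0.17 as a mean over its probe sets. With the mean over probe sets, *Incenp* was at -0.12, *Bub1* at 0.0044, *Bub3* at 0.64, *Cenpf* at -0.35 and the checkpoint group at 0.0044. Without probe sets ending in _x_at or _s_at, *Incenp* was at -0.077, *Bub3* at 0.22, *Plk4* at 0.29, *Cdc20* at -0.13 and *Prc1* at 0.14. With second probe sets, *Incenp* was at -0.077, *Bub1* at 0.17, *Bub3* at 0.22, *Cenpf* at -1.0, the checkpoint group at 0.19, the central spindle group at -0.080, the MuvB list at 0.15 and the CDK inhibitors at 0.16. The DNA replication list was at 0.059 with second probe sets. For levels of 7 or more the CDK inhibitors were at 0.0031. In these cases other probe sets or fewer genes were read, and further causes were not tested. No single gene with a difference of 0.1 or more in size changed sign without centring, after quantile normalization or after loess. No paired analysis was possible because there is 1 array per title, and for the same reason no array could be left out.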

Other observations

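A list of other genes reported as FoxM1 targets, among them genes of matrix breakdown, the G1 phase, DNA repair and vessel growth, was mostly lower on the -/- array, by small amounts that were not tested. *Cdc25a* stands both here and among the regulators of mitotic entry. Of 11 measured genes, 3 were higher and 8 lower on the -/- array, while 50.5% of all genes were higher. The median difference was -0.044, beside 0.0028 over all genes. *Mmp2*, a matrix protease gene, was at 11.25 on the -/- array against 11.39 on the +/+ array, a difference of -0.16. *Ccnd1*, which encodes cyclin D1, differed by -0.12 and *Skp2*, the ubiquitin ligase subunit that marks p27Kip1 for destruction, by -0.19, while *Mapk8*, which encodes the kinase JNK1, differed by 0.12. The largest difference of this list was that of *Mmp9*, a protease gene of osteoclasts and other cells, at 8.63 on the -/- array against 8.11 on the +/+ array, a difference of 0.50. *Mmp9* was singled out after its value was seen.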
